A study of Mus musculus with 6 samples.

Results

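The collagen genes of the soleus (Sol) muscle were described in mice that had run on a wheel. Members were every gene of the count table whose whole symbol reads Col, digits, a, digits, which gave 44 of the 24411 genes listed. Of these, 11 encode fibrillar collagens, 8 encode basement membrane collagens (types IV, XV and XVIII) and 25 encode other collagens. RNA came from the Sol of 3 WT and 3 LSD1-mKO mice after voluntary wheel running (VWR), 1 library per mouse, and each group had the wheel for 38 days from the age of 8 weeks. Per the methods, WT mice carried the floxed Lsd1 alleles without CreERT2, LSD1-mKO mice carried the same floxed alleles plus CreERT2 under the human ACTA1 promoter. The labels give the strain as C57BL/6. Tamoxifen was given at 75 mg/kg on 5 consecutive days after 3 days with the wheel. The ACTA1 promoter acts in differentiating and mature muscle cells, and the deletion is not directed at the other cell types of the muscle. No sedentary mice were analysed here.

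Most collagens are secreted triple helices of chains rich in glycine and proline, and 4 of the 44 genes encode transmembrane collagens. Fibrillar collagens, mainly types I and III, form the tensile fibers of endomysium, perimysium and tendon and are made chiefly by fibroblasts. Type IV forms the sheet-like network of the basement membrane around each muscle fiber and capillary, types XV and XVIII sit at its outer face, type VI forms beaded filaments beside it, and FACIT collagens decorate fibrils or mark junctions.

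The totals ran from 8940206 to 13798059 estimated counts per library. Kdm1a, which encodes LSD1 (chromosome 4, 136550540 to 136602723, GRCm38), reached 40.5, 38.2 and 33.6 counts per 1000000 after TMM scaling (CPM) in the WT mice, given throughout in the order of replicates 1, 2 and 3, and 14.6, 16.6 and 16.6 in the LSD1-mKO mice. Every LSD1-mKO mouse was below every WT mouse, with a fitted log2 difference of -1.23 and a standard error of 0.11 (edgeR, adjusted p = 0.016). Leaving out single mice ended that call 4 times: without WT replicate 2 and without LSD1-mKO replicate 1, 2 or 3 the adjusted p (edgeR) was 0.116, 0.111, 0.143 and 0.209, with a log2 fold change from -1.26 to -1.17. With the replicate number as a block the call was lost as well (-1.23, edgeR adjusted p = 0.299). Slow-fiber genes were abundant in every mouse, with Myl2, the slow regulatory light chain, between 9282 and 12726 transcripts per 1000000 (TPM, counts divided by transcript length).

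Collagen mRNA varied widely between mice of the same genotype, and most so for the fibrillar class. All 44 genes together made up 0.167%, 0.470% and 0.540% of the counts in WT and 0.349%, 0.144% and 0.183% in LSD1-mKO. WT replicate 1 was thus close to LSD1-mKO replicates 2 and 3, and LSD1-mKO replicate 1 lay between them and the other WT mice. The summed TPM of the fibrillar genes was 358, 1168 and 1484 in WT and 850.4, 278 and 364 in LSD1-mKO, a 5.35-fold range over the 6 mice, 4.14-fold within WT and 3.06-fold within LSD1-mKO. For the basement membrane genes it was 150.0, 333 and 252 in WT and 255, 141 and 209 in LSD1-mKO, a range of 2.36-fold. The other collagens summed to 116, 304 and 322 TPM in WT and to 220.2, 126 and 134 in LSD1-mKO. In each class the 2 groups of mice overlapped. Fewer cells of a type and less RNA per cell cannot be told apart in RNA from whole muscle.

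**Figure D1:**
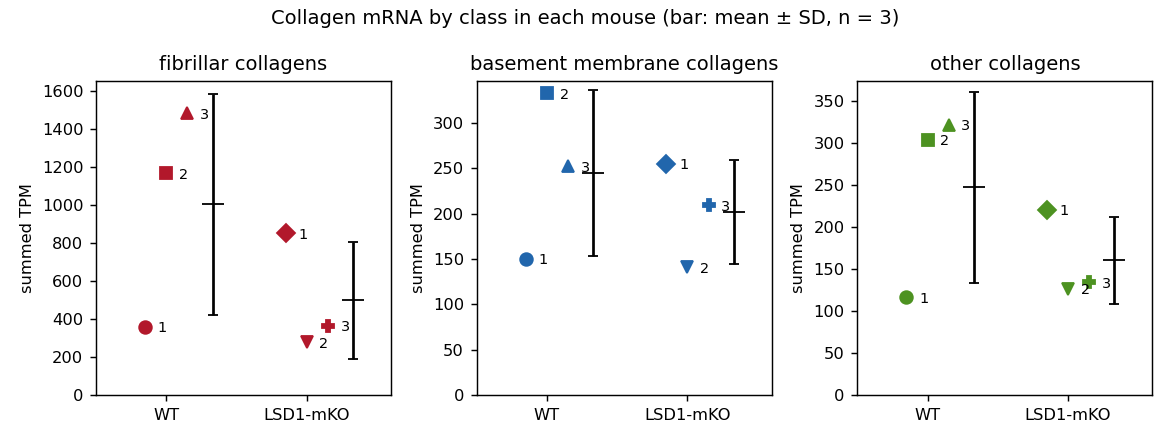
Summed TPM (linear axis from 0) of the fibrillar, basement membrane and other collagen genes in each WT and LSD1-mKO mouse, numbered by replicate, with a bar for the mean ± SD of 3 mice. WT replicate 1 lies among the LSD1-mKO mice in the fibrillar panel at 358, and the spread within WT, from 358 to 1484, is wider there than in the basement membrane panel, from 150.0 to 333.

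The make-up of collagen mRNA also differed between mice. Fibrillar genes accounted for 57.4%, 64.7% and 72.1% of collagen TPM in WT and for 64.2%, 51.0% and 51.4% in LSD1-mKO. The basement membrane share was 24.0%, 18.4% and 12.2% in WT and 19.2%, 25.9% and 29.6% in LSD1-mKO. The ratio of fibrillar to basement membrane TPM was 2.39, 3.51 and 5.88 in WT (mean 3.93 ± 1.78, SD, n = 3) and 3.34, 1.97 and 1.74 in LSD1-mKO (2.35 ± 0.862, SD, n = 3). WT replicate 3 was the highest mouse and LSD1-mKO replicate 3 the lowest, and the groups overlapped through WT replicate 1 and LSD1-mKO replicate 1.

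A few chains carried most of the signal, and the 6 most abundant genes made up 79.2% of the mean collagen TPM. Among the fibrillar genes, Col1a1, Col1a2 and Col3a1 together made up between 86.9% and 91.7% of the class in each mouse. Col1a1 (chromosome 11, 94936224 to 94953042) and Col1a2 (chromosome 6, 4504814 to 4541544) encode the chains of type I collagen, the main load-bearing fibril. Col1a1 measured 76.2, 229 and 302 TPM in WT and 163, 54.5 and 62.3 in LSD1-mKO. Col1a2 measured 148, 376 and 565 TPM in WT and 315, 109.7 and 125 in LSD1-mKO. Both genes were highest in WT replicate 3 and lowest in LSD1-mKO replicate 2, with WT replicate 1 within the range of LSD1-mKO.

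Col3a1 (chromosome 1, 45311538 to 45349706) encodes type III collagen, which mixes with type I in the endomysium and in vessel walls. It measured 95.4, 457 and 493 TPM in WT and 293, 76.9 and 133 in LSD1-mKO. Its highest mouse was 6.30-fold above its lowest on the CPM scale. Col5a1, Col5a2 and Col5a3 encode type V collagen, which sets fibril diameter. Col5a1 measured 7.94, 30.6 and 34.4 TPM in WT and 20.7, 7.71 and 11.2 in LSD1-mKO. Col5a2, next to Col3a1 with a gap of 24614 bases, measured 14.1, 44.9 and 52.2 TPM in WT and 31.8, 14.4 and 17.3 in LSD1-mKO. Col5a3 was highest in WT replicate 2, at 16.6 TPM, and lowest in LSD1-mKO replicate 2, at 5.18 TPM.

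Col11a1 and Col11a2 encode minor fibrillar chains of type XI, best known from cartilage. Col11a1 stood out in WT replicate 3, with 10.8 TPM against 1.88 to 5.04 in the other mice. Col11a2 ranged from 3.07 to 7.51 TPM. Col24a1 and Col27a1, which encode the less studied fibrillar types XXIV and XXVII, were low, from 1.85 to 3.45 and from 0.515 to 1.31 TPM. Col2a1, the main cartilage collagen, had at most 32 counts in any library.

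Stretches of RefSeq sequence just before the start of 4 genes are shown, since Col3a1 and Col5a1 ranked the 6 mice in the same order, while Col27a1 and Col28a1, described below, were among the genes whose genotype groups did not overlap. Each is the 200 bases before the RefSeq start on the strand of the gene in GRCm38.p6, chr1:45311338-45311537 (plus strand), chr2:27886225-27886424 (plus), chr4:63215212-63215411 (plus) and chr6:8192618-8192817 (minus) in that order. In GENCODE the Col27a1 gene begins earlier, at 63214004, so its stretch lies inside the gene as annotated there. Capitals mark matches on either strand to a CCAAT box (CCAAT), a GC box (GGGCGG) or a TATA box (TATAAA).
Col3a1: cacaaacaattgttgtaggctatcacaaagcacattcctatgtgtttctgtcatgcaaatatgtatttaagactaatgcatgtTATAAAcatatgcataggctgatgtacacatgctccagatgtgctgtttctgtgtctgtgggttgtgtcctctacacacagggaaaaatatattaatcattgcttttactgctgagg
Col5a1: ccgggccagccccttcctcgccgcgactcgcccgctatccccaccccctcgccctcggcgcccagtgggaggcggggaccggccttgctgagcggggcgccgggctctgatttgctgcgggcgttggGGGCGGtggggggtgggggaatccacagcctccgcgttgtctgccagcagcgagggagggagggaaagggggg
Col27a1: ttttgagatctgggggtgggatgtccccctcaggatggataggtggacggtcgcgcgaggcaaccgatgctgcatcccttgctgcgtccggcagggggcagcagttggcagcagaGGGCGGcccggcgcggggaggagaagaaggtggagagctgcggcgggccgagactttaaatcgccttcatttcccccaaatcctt
Col28a1: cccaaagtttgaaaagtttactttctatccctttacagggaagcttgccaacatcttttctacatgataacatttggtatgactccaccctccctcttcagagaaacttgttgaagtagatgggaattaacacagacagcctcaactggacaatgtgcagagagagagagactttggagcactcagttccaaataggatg
The Col3a1 stretch held a TATAAA, 117 bases before the start, and no GGGCGG. Those of Col5a1 and Col27a1 held a GGGCGG, and that of Col28a1 held none of the 3 motifs. RefSeq windows of 300 bases were found for 35 of the 44 genes, 38 windows in all. None was found for Col5a2, which ranked the mice as Col3a1 did, or for Col22a1, whose groups also did not overlap. A GGGCGG on either strand was present in 60.5% of them, against 35.7% of the windows of all genes, a CCAAT in 34.2% against 37.4%, and a TATAAA in 13.2% against 13.6%. Among fibrillar windows, 6 of 8 held a GGGCGG. Such matches describe the letters and are not known sites.

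**Figure D2:**
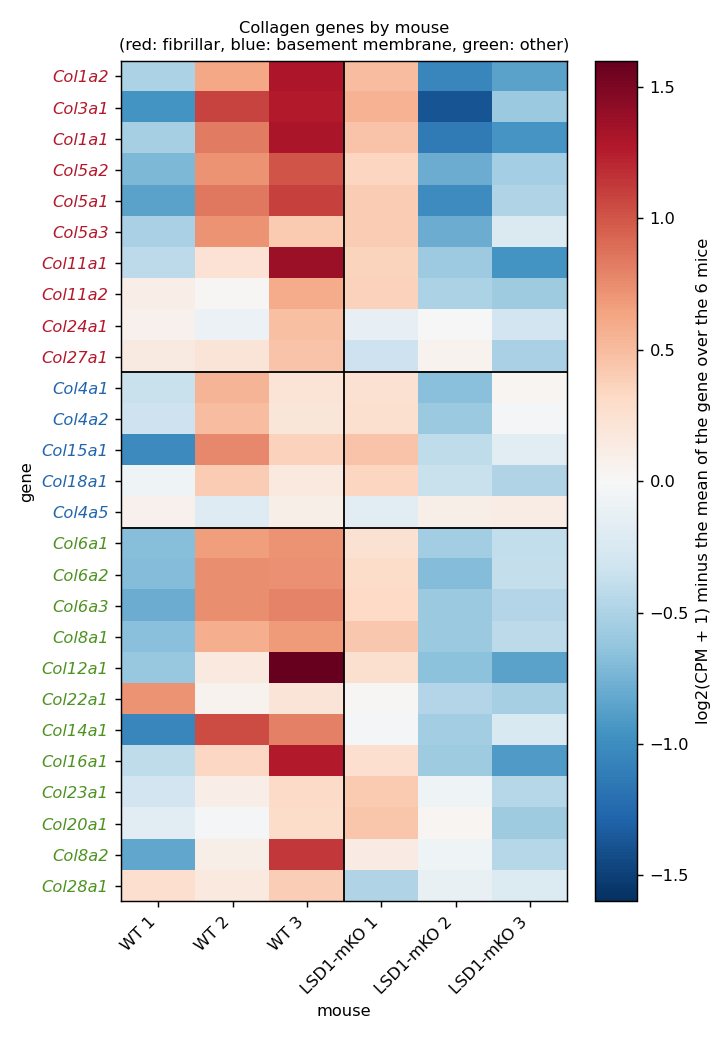
Colour gives log2(CPM + 1) of each named collagen gene minus its mean over the 6 mice, with 1 column per mouse and gene names coloured by class. WT replicates 2 and 3 and LSD1-mKO replicate 1 are red for most genes of each class. Exceptions include Col4a5, Col24a1, Col27a1 and Col28a1. Their within-genotype SDs were 0.15 to 0.24, which the colour does not show. For Col27a1 and Col28a1 every LSD1-mKO mouse was below every WT mouse.

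The basement membrane class rested on Col4a1 and Col4a2, which encode the chains of the type IV network found in all basement membranes and made up between 96.8% and 98.6% of type IV TPM. Col4a1 measured 70.5, 154 and 116 TPM in WT and 115, 61.3 and 100.1 in LSD1-mKO. Col4a2 measured 58.4, 120.4 and 92.4 TPM in WT and 94.6, 52.3 and 78.7 in LSD1-mKO. WT replicate 2, not WT replicate 3, was the highest mouse for both, and LSD1-mKO replicate 2 was the lowest. The genes lie head to head on chromosome 8, Col4a1 from 11198423 to 11312826 on the minus strand and Col4a2 from 11312805 to 11449287 on the plus strand, so that they share 22 bases at their 5′ ends, shown here because the pair kept a near-constant ratio.
Col4a1 and Col4a2, shared stretch on the plus strand of chr8:11312805-11312826: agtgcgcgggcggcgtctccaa
The strand setting of the counting is not given in the sources used here, and reads from these shared bases could be counted for either gene. Whether the overlap has any part in the steady ratio was not tested.

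Col15a1 (type XV) and Col18a1 (type XVIII, the precursor of endostatin) encode collagens that link the basement membrane to the surrounding matrix. Col15a1 measured 10.5, 43.2 and 30.9 TPM in WT and 32.2, 17.6 and 20.9 in LSD1-mKO, and WT replicate 1 was the lowest mouse. Col18a1 ranged from 5.53 TPM in LSD1-mKO replicate 3 to 11.4 in WT replicate 2. Col4a5, a minor type IV chain, hardly varied, with 2.45, 2.29 and 2.76 TPM in WT and 2.19, 2.69 and 2.75 in LSD1-mKO. Col4a3 and Col4a4 lay at 2.32 to 3.69 and at 0.964 to 2.07 CPM, and Col4a6 had at most 7 counts in any library and was not tested.

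Collagen VI, whose chains form the filaments that anchor the basement membrane and whose loss causes congenital myopathy, took 9.93% to 14.4% of collagen TPM. Col6a1 measured 35.3, 106 and 104 TPM in WT and 72.7, 41.8 and 47.0 in LSD1-mKO. Col6a2 measured 23.3, 74.2 and 70.1 TPM in WT and 50.3, 25.4 and 31.4 in LSD1-mKO. Col6a3 measured 8.80, 30.3 and 29.8 TPM in WT and 20.8, 10.96 and 12.0 in LSD1-mKO. WT replicate 1 was the lowest mouse for all 3 genes. The alternative chains were rare, with at most 24 counts of Col6a6, 3 of Col6a4 and 1 of Col6a5 in any library.

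The FACIT genes, whose products bind fibrils or interfaces, did not share a single order of mice. Col12a1 (chromosome 9, 79598991 to 79718831), abundant in tendon, measured 4.07, 8.19 and 23.3 TPM in WT and 8.08, 4.24 and 3.69 in LSD1-mKO, so that WT replicate 3 stood alone. Col16a1 was also highest there, at 16.1 TPM against 3.17 to 8.64 in the others. Col14a1 was highest in WT replicate 2, at 14.6 TPM, and lowest in WT replicate 1, at 2.71. Col22a1 (chromosome 15, 71795795 to 72034227), a marker of the myotendinous junction that muscle fibers themselves express, measured 12.9, 9.43 and 9.93 TPM in WT and 8.46, 5.98 and 5.72 in LSD1-mKO. WT replicate 1 was the highest of the 6 for this gene, and every LSD1-mKO mouse was below every WT mouse. Col20a1 ranged from 1.69 to 3.82 TPM.

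Among the remaining genes, Col8a1, a network collagen of vessel walls, measured 11.1, 31.1 and 31.6 TPM in WT and 25.8, 12.5 and 14.3 in LSD1-mKO. Col8a2 was highest in WT replicate 3, at 6.10 TPM, and lowest in WT replicate 1, at 1.08. Col23a1, a transmembrane collagen, ranged from 2.26 to 4.45 TPM. Col28a1 (chromosome 6, 7997808 to 8192617), a collagen known from the basement membrane around Schwann cells, measured 3.03, 3.24 and 3.69 TPM in WT and 1.73, 2.38 and 2.19 in LSD1-mKO, with no overlap. The other 8 genes tested, Col2a1, Col4a3, Col4a4, Col6a6, Col7a1, Col13a1, Col25a1 and Col26a1, had means from 1.15 to 3.68 CPM. The 9 genes that did not pass the expression filter, Col4a6, Col6a4, Col6a5, Col9a1, Col9a2, Col9a3, Col10a1, Col17a1 and Col19a1, had at most 8 counts in any library, and 3 of them stayed under 3 counts in every library. Counts of amplified reads are not independent molecules, so this floor of 3 counts covers counting error only.

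Ratios of Col1a1 over Col1a2, Col4a1 over Col4a2, Col5a1 over Col5a2, and Col6a1 and Col6a3 over Col6a2 ranged less than the chains themselves. Other pairs of type IV chains were not compared. Ratios of the other pairs named below ranged more widely. The TPM ratio of Col1a1 to Col1a2 lay between 0.497 and 0.610 in the 6 mice, while Col1a1 itself ranged 5.44-fold and Col1a2 5.06-fold on the CPM scale. Levels set against each other here rest on 1 transcript length per gene. Col4a1 over Col4a2 lay between 1.17 and 1.28, Col6a1 over Col6a2 between 1.43 and 1.65, and Col6a3 over Col6a2 between 0.378 and 0.432. Col5a1 over Col5a2 lay between 0.535 and 0.682, a 1.28-fold range, while Col5a1 itself ranged 4.38-fold and Col5a2 3.55-fold on the CPM scale. Col5a3 over Col5a1 ranged 2.01-fold, from 0.368 in WT replicate 3 to 0.740 in WT replicate 1, and Col8a1 over Col8a2 ranged 2.10-fold. Both were still below the ranges of their chains, with Col5a3 at 2.98-fold, Col8a1 at 2.59-fold and Col8a2 at 5.12-fold on the CPM scale. Col11a1 over Col11a2 ran from 0.558 in WT replicate 1 to 1.43 in WT replicate 3, 2.57-fold, which was wider than the 2.41-fold range of Col11a2 itself. Across classes, Col1a1 over Col4a1 ran from 0.622 in LSD1-mKO replicate 3 to 2.60 in WT replicate 3, a 4.18-fold range. The groups overlapped in every ratio named here.

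**Figure D3:**
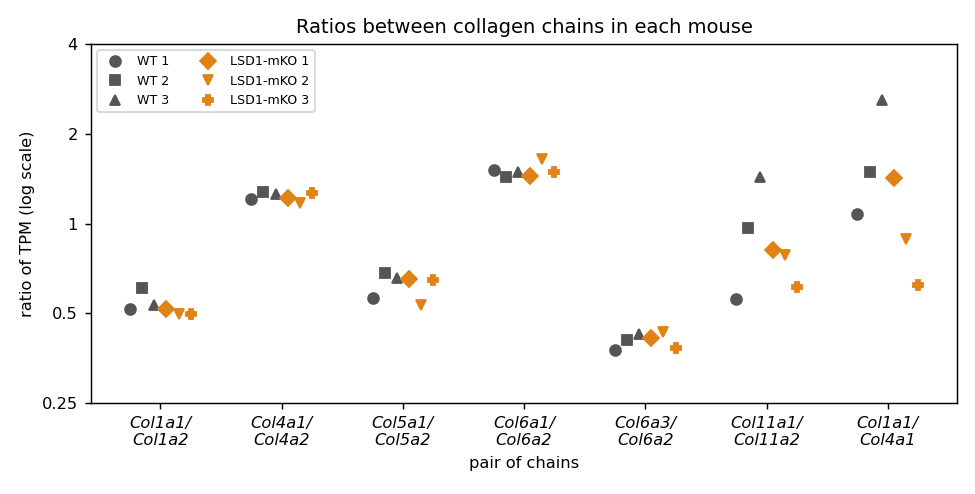
Ratio of the TPM of chain pairs on a log scale, 1 point per mouse, WT in grey and LSD1-mKO in orange. The pairs shown for types I, IV and VI and Col5a1 over Col5a2 lie in narrow bands, such as 1.17 to 1.28 for Col4a1 over Col4a2. Col1a1 over Col4a1 spans 0.622 to 2.60.

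The spread can be set beside that of all genes. The within-genotype SD of log2(CPM + 1) had a median of 0.78 over the 11 fibrillar genes, 0.36 over the 7 basement membrane genes tested and 0.51 over the 17 other genes tested, against 0.16 over all 12828 genes tested. Col3a1 had the largest of the 35 values, 1.11, at the 99.9th percentile of all genes tested, and Col12a1 (0.94), Col1a1 (0.91) and Col5a1 (0.90) were at or above the 99.6th. At the other end were Col28a1 (0.15), Col4a5 (0.16), Col4a3 (0.18), Col24a1 (0.23) and Col27a1 (0.24). Their means were low, from 3.07 CPM for Col27a1 to 7.70 CPM for Col24a1. The 1 added to the CPM lowers the SD of such genes, so this ranking depends in part on level. WT replicates 2 and 3 and LSD1-mKO replicate 1 were the 3 highest mice for 23 of the 35 collagen genes tested (65.7%), against 13.4% of all genes tested. That combination was noticed in these data and is given as a description. The exceptions among named genes were Col4a5, Col11a2, Col20a1, Col22a1, Col24a1, Col27a1 and Col28a1.

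No collagen gene differed between the genotypes after adjustment. Before it, Col22a1, Col27a1 and Col28a1 were lower in LSD1-mKO, 8.57% of the collagens tested beside 6.40% of all genes at that level in either direction. The quasi-likelihood test of edgeR was run over the 12828 genes that passed the expression filter, 35 collagens among them. Of these 35, 0 passed an adjusted p of 0.05 (Benjamini-Hochberg), against 0.0156% of all genes tested (0.00780% higher and 0.00780% lower in LSD1-mKO), and their lowest adjusted p by edgeR was 0.608. By limma voom and by DESeq2 the number of collagens was also 0. At an unadjusted p under 0.05 by edgeR, 3 of the 35 (8.57%) were lower in LSD1-mKO and 0 were higher, against 6.40% of all genes tested (2.88% lower and 3.52% higher). The same 3 (8.57%) were the collagens whose groups did not overlap, all with LSD1-mKO below WT, against 12.7% of all genes tested (6.10% lower and 6.62% higher). DESeq2 gave 2 of 35, Col22a1 and Col28a1, at an unadjusted p under 0.05, against 4.5% of all genes.

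Col22a1 was fitted at -0.67 on the log2 scale (standard error 0.21, 95% interval -1.15 to -0.20, edgeR unadjusted p = 0.0111, adjusted p = 0.619). That of Col28a1 was -0.65 (standard error 0.19, interval -1.10 to -0.20, edgeR unadjusted p = 0.00966, adjusted p = 0.608). Col27a1, the lowest of the 3 at means of 3.81 ± 0.562 CPM (SD, n = 3) in WT and 2.34 ± 0.693 in LSD1-mKO, had a log2 fold change of -0.69 (standard error 0.27, edgeR unadjusted p = 0.0339, adjusted p = 0.729). For each of the 3, the exact permutation test of the CPM (2-sided) gave p = 0.1, the smallest that 3 mice against 3 allow. Over the 6 fits without a single mouse the fitted value stayed between -0.88 and -0.45 for Col22a1, between -0.75 and -0.53 for Col28a1 and between -0.95 and -0.54 for Col27a1. Col27a1 was no longer at an unadjusted p under 0.05 by edgeR in 4 of these fits, without WT replicate 2 or 3 or LSD1-mKO replicate 1 or 3, nor with the replicate number as a block.

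For the abundant fibrillar chains the fitted differences were larger and the intervals wider. Col1a1 measured 529 ± 289 CPM (SD, n = 3) in WT and 251 ± 164 in LSD1-mKO, fitted at -1.08 on the log2 scale (95% interval -2.27 to 0.12, edgeR adjusted p = 0.766). For Col1a2 and Col3a1 the fitted values were -0.95 (-2.10 to 0.20) and -1.0 (-2.38 to 0.38). Those of Col5a1, Col5a2 and Col5a3 were -0.84, -0.77 and -0.45, and those of Col11a1, Col11a2 and Col24a1 were -0.93, -0.46 and -0.35. Each of these intervals included 0, and the median distance from a fitted value to its 95% bound was 1.13 on the log2 scale for fibrillar genes, against 0.57 for basement membrane genes. Single mice moved these values. Without LSD1-mKO replicate 1 the fitted value was -1.76 for Col1a1, -1.6 for Col1a2, -1.69 for Col3a1 and -1.45 for Col11a1, and without WT replicate 3 it was -0.66, -0.47, -0.65 and -0.25.

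The basement membrane genes were fitted closer to 0. Col4a1 had a log2 fold change of -0.27 (95% interval -0.89 to 0.35, edgeR adjusted p = 0.876), Col4a2 of -0.23 (-0.81 to 0.34), Col15a1 of -0.21 (-1.14 to 0.71), Col18a1 of -0.31 (-0.85 to 0.22) and Col4a5 of 0.03 (-0.36 to 0.42). For the type VI genes Col6a1, Col6a2 and Col6a3 the values were -0.56, -0.60 and -0.61, with intervals from -1.53 to 0.31 at the widest. Among the FACIT genes Col12a1, Col16a1, Col14a1 and Col20a1 had -1.12, -0.93, -0.83 and -0.01. Without WT replicate 3 Col12a1 was at -0.17 and Col16a1 at -0.35, and without WT replicate 2 Col14a1 was at -0.46. Col8a1, Col8a2 and Col23a1 had -0.45, -0.56 and -0.05.

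**Figure D4:**
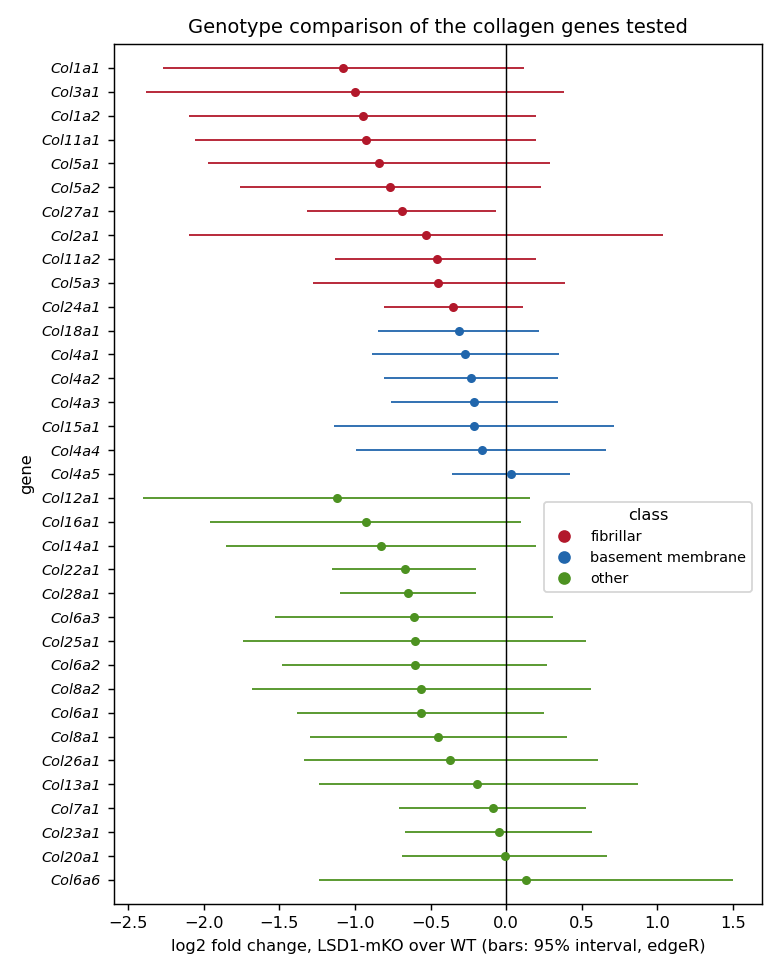
Fitted log2 fold change (LSD1-mKO over WT) of each of the 35 collagen genes tested, with its 95% interval from edgeR, ordered within class. Of the 35 points 33 lie below 0, and the intervals of Col22a1, Col27a1 and Col28a1 do not reach 0 before adjustment.

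By class, all 11 fibrillar genes, 6 of 7 basement membrane genes and 16 of 17 other genes had a fitted level below WT, against 54.8% of all genes tested. The median log2 fold change was -0.77 for fibrillar, -0.21 for basement membrane and -0.56 for other collagens, against -0.02 for all genes tested. The genes were measured in the same 6 mice, and 23 of the 35 had the same 3 mice on top, so their directions are not separate observations. The medians turned on single mice. The fibrillar median was -1.33 without LSD1-mKO replicate 1 and -0.43 without WT replicate 3, the basement membrane median -0.44 without LSD1-mKO replicate 1 and -0.03 without LSD1-mKO replicate 2, and that of the others -0.83 without LSD1-mKO replicate 1 and -0.34 without WT replicate 3. Without WT replicate 1, 19 collagens had an unadjusted p under 0.05 by edgeR, when 14.4% of all genes tested did in either direction, and without LSD1-mKO replicate 1 there were 16, when 7.35% did. The number past the adjusted threshold was 0 in each of these fits.

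The enzymes that modify and fold collagen inside the cell were steadier than the collagens. Of 19 genes tested, 1 had an unadjusted p under 0.05, against 6.40% of all genes tested. It was Plod1, a lysyl hydroxylase (log2 fold change -0.24, edgeR adjusted p = 0.766). The median of the 19 was -0.24. P4hb, the disulfide isomerase that forms the beta subunit of prolyl hydroxylase, measured 174, 216 and 198 TPM in WT and 179, 184 and 184 in LSD1-mKO. Serpinh1, the collagen chaperone HSP47, followed the collagens, with 53.0, 135 and 121 TPM in WT and 85.1, 62.2 and 77.9 in LSD1-mKO. Ppib, the cyclophilin B of the folding complex, measured 83.0, 136 and 132 TPM in WT and 114, 87.1 and 90.9 in LSD1-mKO.

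Of the 12 genes tested for cleavage and crosslinking of procollagen, 3 had an unadjusted p under 0.05, all lower in LSD1-mKO. These were Tll1, Pcolce2 and Loxl3, with log2 fold changes of -1.13, -0.49 and -0.47. Of all genes tested, 2.88% were lower and 3.52% higher at that level. After adjustment by edgeR 0 of the 12 passed the threshold, and their median was -0.45. For 8 of the 12, WT replicates 2 and 3 and LSD1-mKO replicate 1 were the 3 highest mice, so their directions are not separate observations. Pcolce, which speeds removal of the C-propeptide, measured 45.9, 124 and 106 TPM in WT and 87.6, 59.1 and 56.7 in LSD1-mKO. Bmp1, the C-proteinase itself, measured 20.1, 37.6 and 33.8 TPM in WT and 27.6, 18.4 and 20.3 in LSD1-mKO. Loxl1, a crosslinking oxidase, ranged from 8.60 TPM in WT replicate 1 to 31.4 in WT replicate 2. The 8 genes of collagen degradation had a median of -0.50 with 0 at an unadjusted p under 0.05. Of these, Mmp2, a gelatinase, measured 48.5, 123 and 154 TPM in WT and 96.8, 63.4 and 57.2 in LSD1-mKO. Its inhibitors Timp2 and Timp3 ranged from 56.2 to 161 and from 151 to 193 TPM.

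Among the 7 collagen receptors tested, with a median of -0.14, 0 had an unadjusted p under 0.05. Itgb1, the integrin beta1 chain, ranged from 198 to 255 TPM, Ddr2, the fibrillar collagen receptor of fibroblasts, from 5.85 in WT replicate 1 to 19.97 in WT replicate 2, and Ddr1 from 15.9 to 19.0. Of the 12 genes of the TGF-beta axis, 2 had an unadjusted p under 0.05, both lower in LSD1-mKO, and the median was -0.13. Of all genes tested, 2.88% were lower and 3.52% higher at that level. For 6 of the 12, WT replicates 2 and 3 and LSD1-mKO replicate 1 were the 3 highest mice. Postn, a matricellular protein induced by TGF-beta, measured 73.0, 288 and 290.1 TPM in WT and 138, 48.9 and 48.2 in LSD1-mKO, and was fitted at -1.42 on the log2 scale (standard error 0.54, edgeR adjusted p = 0.729). Ctgf measured 223, 150.2 and 249.7 TPM in WT and 148, 141 and 159.6 in LSD1-mKO (log2 fold change -0.48, edgeR adjusted p = 0.766). The ligand Tgfb3 ranged from 37.1 to 50.3 TPM.

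Most markers of connective tissue cells and leukocytes were highest in the same 3 mice as most collagens. The 10 fibroblast markers summed to 1427, 3096 and 3099 TPM in WT and to 2488, 2175 and 2151 in LSD1-mKO. For 8 of 10 the 3 highest mice were the same as for most collagens, a combination found for 13.4% of all genes tested. The lowest mouse differed: WT replicate 1 was lowest for 8 of the 10 but for 0 of the 11 fibrillar genes. The median log2 fold change of the fibroblast markers was -0.25, against -0.77 for fibrillar collagens. Dcn (decorin), a proteoglycan that binds collagen fibrils, measured 461, 1055 and 1041 TPM in WT and 882, 809.8 and 733 in LSD1-mKO. In LSD1-mKO replicates 2 and 3, Dcn was thus above WT replicate 1 while Col1a1 was below it. Gsn ranged from 692 to 1355 TPM and Cd34 from 70.3 to 166.

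The 8 tenocyte and myotendinous junction markers summed to 315, 706 and 971 TPM in WT and to 834, 412 and 357 in LSD1-mKO, and 7 of 8 had those 3 mice on top. Of these, Thbs4 measured 145, 285 and 460.0 TPM in WT and 398, 174 and 133 in LSD1-mKO, Fmod from 73.8 in WT replicate 1 to 289 in WT replicate 3, and Tnmd, the tenocyte marker tenomodulin, 28.6, 84.2 and 99.6 in WT and 60.9, 29.8 and 30.4 in LSD1-mKO. Chodl, named after its values were seen, was the member with an unadjusted p under 0.05 (log2 fold change -0.45, edgeR adjusted p = 0.766). All 8 macrophage and leukocyte markers had those 3 mice on top and summed to 117, 419 and 312 TPM in WT and to 243, 128 and 182 in LSD1-mKO, with Lyz2 from 91.6 to 311, Cd68 from 4.61 to 27.9 and Csf1r from 5.61 to 26.6. None of the markers of these 3 lists was at 0. Their part in the differences between mice was not tested.

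**Figure D5:**
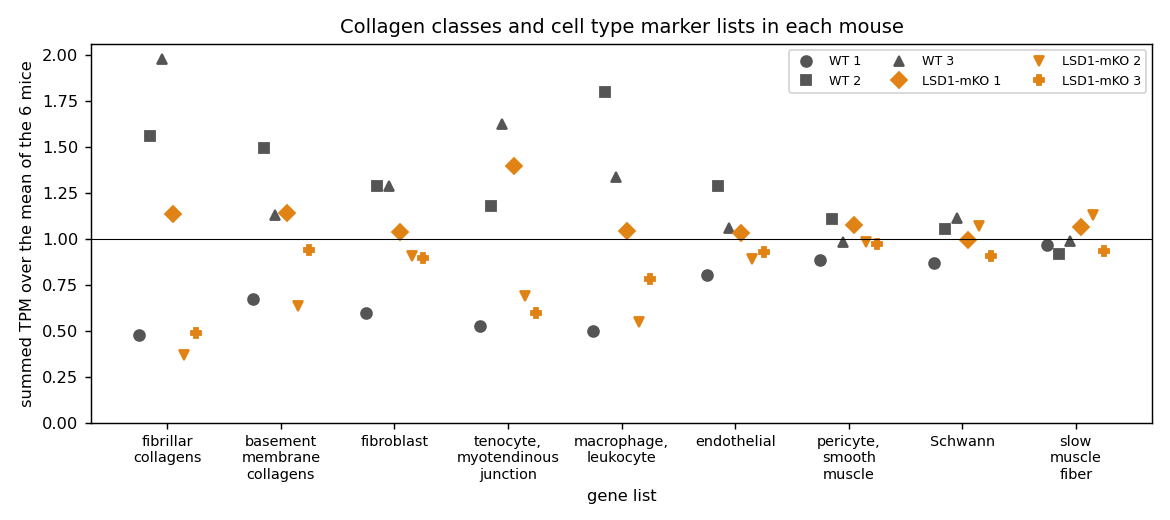
Summed TPM of 2 collagen classes and 7 marker lists in each mouse, divided by the mean of the 6 mice for that list, on a linear axis from 0. The fibrillar collagens spread most, 5.35-fold from the lowest to the highest mouse, beside 3.59-fold for macrophage and leukocyte, 3.09-fold for tenocyte and myotendinous junction, 2.17-fold for fibroblast and 1.23-fold for slow muscle fiber markers.

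The lists for other cell types did not all vary in the same way. The endothelial, pericyte and smooth muscle, and adipocyte sums were also highest in WT replicates 2 and 3 and LSD1-mKO replicate 1. WT replicate 1 was lowest in each. In each of these lists 3 of 8 markers had those 3 mice on top (37.5%), against 13.4% of all genes tested. The number was 0 for the Schwann, slow-fiber, satellite cell, and cartilage and bone lists, and 1 of 5 for red blood cell genes. The endothelial list summed to 297, 474 and 391 TPM in WT and to 381, 329 and 342 in LSD1-mKO, with Vwf, also named after its values were seen, as the member at an unadjusted p under 0.05 (log2 fold change -0.45, edgeR adjusted p = 0.619), Pecam1 between 88.4 and 135 TPM and Cdh5 between 78.3 and 147. Pericyte and smooth muscle markers summed to between 446 and 559 TPM, Schwann cell markers to between 141 and 182, adipocyte markers to between 1202 and 1527, satellite cell markers to between 5.22 and 10.6, and slow-fiber genes to between 48787 and 60231 in all mice. Red blood cell genes summed to between 705 and 2199 TPM, highest in WT replicate 2. Among them Hba-a1, named after its values were seen, had an unadjusted p under 0.05 and was higher in LSD1-mKO (log2 fold change 3.95, standard error 1.36, edgeR adjusted p = 0.684), with overlapping groups. Its near-identical copy Hba-a2 was fitted at -0.58, and the split of reads between the copies is uncertain. Of the cartilage and bone list, which summed to between 21.1 and 67.1 TPM, Comp, a matrix protein of both cartilage and tendon, made up most, with 21.3, 38.5 and 58.8 TPM in WT and 35.8, 43.9 and 15.03 in LSD1-mKO. Ibsp, a bone sialoprotein, was at 0 in 4 mice and at 2.61 and 6.66 TPM in WT replicate 3 and LSD1-mKO replicate 2.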

How the data were processed

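Sol poly(A) RNA (3 WT and 3 LSD1-mKO mice) gave single-end sequences of 75 bases. STAR and mm10 were used by the authors for alignment, and the deposited values are estimated counts without normalization. The counting tool, its strand setting and the annotation are not given in the sources used here. The authors' DESeq2 table holds their own comparison and was not used. Columns were matched to mice by the number that opens each title, and 8.33% to 9.94% of the values per library were not whole.

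Estimated counts were rounded and tested with edgeR 4.0.16 (TMM, filterByExpr by genotype, quasi-likelihood test, Benjamini-Hochberg over 12828 genes) in R 4.3.3. DESeq2 1.42.0 and limma 3.58.1 (voom) were alternatives, as were other scalings and filters, the replicate number as a block and each mouse left out. Tests were checked on simulated data. An exact permutation test, 2-sided, was run on the CPM of each gene named. No pair of libraries was alike to sampling noise (chi-square per gene at least 9.97). The labels name separate mice, and p-values cover the spread between them. TPM used the longest coding transcript in GENCODE vM21 (99.69% of counts); all 44 collagens had a length. Col21a1 was not analysed here. Promoter windows came from RefSeq, GRCm38.p6.

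Members and lists were chosen with earlier results of these data known. Named genes were collagens with a mean of at least 5 CPM or an unadjusted p under 0.05 (27 genes), Kdm1a, and of each list those at an unadjusted p under 0.05 and up to 3 with the highest TPM (of cell type lists, those 3 and any at 0).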

Additional observations from a re-analysis of the deposited data

How the results depend on the processing

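No collagen gene passed the adjusted threshold in any of the 14 alternatives. The fold changes of the 27 named collagens kept their direction in 367 of 378 comparisons. The 11 changes of direction concerned 5 genes with small or single-mouse differences: Col15a1 was at 0.17 without WT replicate 2, Col8a2 at 0.21 without WT replicate 3, Col4a5 at -0.07, -0.01 and -0.02 without WT replicate 2 or LSD1-mKO replicate 2 or 3, Col23a1 at 0.11, 0.004 and 0.15 without WT replicate 3 or LSD1-mKO replicate 2 or 3, and Col20a1 at 0.15 and 0.23 without WT replicate 3 or LSD1-mKO replicate 3 and at 0.004 without a filter on low counts. Over the fits without single mice, fold changes on the log2 scale lay from -0.57 to 0.17 for Col15a1, from -0.93 to 0.21 for Col8a2, from -0.07 to 0.13 for Col4a5, from -0.34 to 0.15 for Col23a1 and from -0.32 to 0.23 for Col20a1. The cause was not tested.

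The collagens at an unadjusted p under 0.05 numbered 10 of 44 without a filter on low counts (5.8% of all genes) and from 2 to 19 of 35 with 1 mouse left out (3.78% to 14.4% of all genes). The genes called over the whole table were 2, and became 42 by DESeq2, 11 when low counts were kept, and 1 to 3 when single mice were dropped. From 30 to 34 of the 35 collagens were fitted lower with 1 mouse left out. With the replicate number as a block, 1 gene was called and the Kdm1a value of -1.23 lost its call. Mice that share a replicate number did not deviate together (correlations over genes of -0.373, -0.0887 and -0.146), and the number was not read as a pairing.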
